A study of Rattus norvegicus with 6 samples.

Results

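Imprinted genes outside the H19 locus were followed in RNA-seq counts of cultured rat cells labelled as heart cells. The 10 genes were chosen by symbol: Peg3, Peg10, Meg3, Dlk1, Grb10, Plagl1, Mest, Ndn, Gnas and Nnat. Counts were found for 7 of these 10 genes among 18237 gene rows, and Meg3, Dlk1 and Ndn were not analysed here. The 6 libraries carry the label NRVM (commonly neonatal rat ventricular myocytes), while their growth protocol starts from the heart muscle of embryos. They were kept in DMEM with fetal bovine serum. Of these libraries, 3 came from cells given a control siRNA (siNT) and 3 from cells given an siRNA against Mt2 (siMt2), a metallothionein gene. The protocol text shared by both groups also mentions dexamethasone, isobutylmethylxanthine and insulin but leaves unsaid whether these cultures were given any, and no source used here gives the hours of siRNA treatment. The labels do not say whether replicates were separate cultures, so p-values reflect the spread among these libraries alone, and that spread may be technical.

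A gene is imprinted when mainly the copy from 1 parent is transcribed, the other being silenced by DNA methylation or associated chromatin set in the germ line. Paternally expressed genes of this kind often promote growth and maternally expressed ones often restrain it, and many are high in the embryo and fall after birth. In the list, Peg3, Peg10, Dlk1, Plagl1, Mest, Ndn and Nnat are known as paternally expressed and Meg3 and Grb10 as maternally expressed, Grb10 being paternally expressed in neurons. Gnas makes several transcripts from separate promoters, some paternal, some maternal and the main one expressed from both copies in most tissues. The counts do not distinguish the parental copies, so what follows is the total level of each gene and says nothing about whether imprinting was kept.

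The start regions of 3 of these genes are shown because their levels moved in different directions and because Peg10 shares its start region with Sgce, a gene that reads the other way. The sequences are from RefSeq on build GRCr8, on the plus strand, and end before the first transcribed base. The counts were made on another build, rn6, so the positions belong to GRCr8 only. Capitals mark TGCCGC or, on the other strand, GCGGCA, the hexamer bound by ZFP57 when methylated, a zinc finger protein that keeps methylation at imprinted regions in the early embryo.
Peg10 and Sgce, chr4:33808789-33809025: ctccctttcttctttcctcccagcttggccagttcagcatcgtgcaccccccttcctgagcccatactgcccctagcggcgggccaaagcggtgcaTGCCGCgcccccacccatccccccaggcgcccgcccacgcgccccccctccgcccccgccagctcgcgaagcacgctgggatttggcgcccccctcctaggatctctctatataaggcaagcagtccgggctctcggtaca
Peg3, chr1:76130744-76130993: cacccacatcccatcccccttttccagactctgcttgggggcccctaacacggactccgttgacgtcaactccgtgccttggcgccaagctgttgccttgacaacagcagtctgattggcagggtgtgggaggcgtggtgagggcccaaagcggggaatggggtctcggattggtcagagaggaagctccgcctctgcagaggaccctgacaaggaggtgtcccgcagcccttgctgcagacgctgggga
Plagl1, chr1:9297214-9297463: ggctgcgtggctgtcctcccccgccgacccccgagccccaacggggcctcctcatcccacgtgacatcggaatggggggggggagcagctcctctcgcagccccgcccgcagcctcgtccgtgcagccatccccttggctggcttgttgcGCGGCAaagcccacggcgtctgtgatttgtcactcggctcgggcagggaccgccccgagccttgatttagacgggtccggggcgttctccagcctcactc
The 237 bases between the starts of Peg10 and Sgce held 18 CG pairs and 1 hexamer, the 250 bases before Plagl1 held 23 CG pairs and 1 hexamer, and the 250 bases before Peg3 held 11 CG pairs and no hexamer. Of the 10 genes, 9 matched the table, all except Nnat, with 11 windows of 300 bases in all (Gnas has 3). The hexamer was in 5 of these 11 windows, those of Peg10, Meg3, Dlk1, Grb10 and Plagl1, and in 11.7% of all 33469 windows of that length. Member windows held 12 to 45 CG pairs with a median of 18, against a median of 7 in all windows, and the hexamer itself contains a CG pair. The core AANATGGC of the factor YY1 (GCCATNTT on the other strand, not overlapping the hexamer in its letters) was in none of the 11 member windows and in 6.96% of all windows. These are matches of letters and show no binding.

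Total counts ran from 2859759 (siMt2 replicate 3) to 6817777 (siMt2 replicate 1) per library, so that 3 counts (the most a library with 0 counts allows) stood for 0.440 to 1.05 CPM (counts per 1000000 of the scaled library total). No drop of Mt2a, the rat gene targeted, passed the test. Its level was 118 ± 45.0 CPM in siNT and 99.9 ± 37.3 CPM in siMt2 (SD, n = 3 each), with overlapping groups, a log2 fold change of -0.28 (SE 0.42) with an edgeR adjusted p of 0.631, and exact permutation of the libraries gave a two-sided p of 0.5. Groups are therefore named by their labels. Of 14 markers fixed for heart muscle, 11 had counts and 3 reached the level needed for testing, with Myh6 at 9, Actc1 at 4, Tnni3 at 3 and Nppb at 2 of 30244268 counts. The troponin gene Tnnt2 made up most of their sum, which was 37.8 to 42.8 CPM in siNT and 59.6 to 74.7 CPM in siMt2, and it rose from 27.2 ± 1.38 to 54.5 ± 5.19 CPM (edgeR adjusted p = 1.81e-07). The other 2 tested did not pass, Ttn with a log2 fold change of -0.42 (SE 0.25; edgeR adjusted p = 0.169) and Nkx2-5 with 0.05 (SE 0.50; edgeR adjusted p = 0.945). These markers do not establish that the cells were heart muscle cells, and the heart label was used as given. Skeletal myoblast markers summed to 119 to 128 and 129 to 184 CPM, with 2 of 4 tested higher (Myod1 and Des) and 1 lower (Myog, log2 fold change -1.47). Cdh15, at a mean of 92.6 and 110 CPM, made up most of this sum and did not pass (edgeR adjusted p = 0.252). Its siMt2 levels of 121, 131 and 78.9 CPM overlapped those in siNT. Fibroblast markers summed to 7160 to 7340 and 9170 to 13000 CPM, with 6 of 8 tested higher and 0 lower. Col1a1, at a mean of 4701 and 7795 CPM, made up most of this sum. Dcn and Lum had 50 and 51 counts over all libraries, and Pdgfra had 2. The fibroblast sum therefore does not show how many fibroblasts there were. Smooth muscle markers summed to 2000 to 2050 and 3940 to 4050 CPM, with 6 of 7 higher and 0 lower. Endothelial markers summed to 76.3 to 85.4 and 33.5 to 40.9 CPM, with 1 of 2 tested lower (Eng, log2 fold change -1.16). Eng alone, at a mean of 73.0 and 31.6 CPM, made up most of this sum. Vwf did not pass (-0.35, SE 0.33), and Tek and Tie1 had 11 and 3 counts over all libraries. Leukocyte markers summed to 22.7 to 27.3 and 14.2 to 17.7 CPM, with the 1 tested lower (Cd14, log2 fold change -0.73). Cd14, at a mean of 23.5 and 14.4 CPM, made up most of that sum, and Ptprc had 2 counts. Neither sum therefore shows that such cells were present or lost. Over all genes tested, 50.9% passed, 25.8% higher and 25.1% lower in siMt2. The part of these marker shifts in the results below was not tested. In bulk RNA, a change in how many cells express a gene and a change in RNA per cell cannot be told apart.

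Among the 7 imprinted genes, Peg3 rose in the libraries labelled siMt2, and Gnas, Plagl1, Peg10 and Grb10 fell, Grb10 by a small and unsteady amount. Mest and Nnat did not pass. Of the 11726 genes tested with edgeR's quasi-likelihood test, 50.9% passed an adjusted p of 0.05, 25.8% higher and 25.1% lower in siMt2. Against this, 5 of the 7 genes passed, 1 higher and 4 lower, too few genes to set their share apart from that of all genes. Their median log2 fold change was -0.32, and that of all genes was 4.90e-04. All 3 libraries of 1 group lay beyond all 3 of the other for 6 of the 7 genes, every one except Nnat, as they did for 57.6% of all genes tested. By parent, 1 of 5 paternally expressed genes rose, 2 fell and 2 did not pass, and the single maternally expressed gene with counts, Grb10, fell. Summed over the 7 genes, the level was 1050 to 1090 CPM in siNT and 914 to 982 CPM in siMt2.

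**Figure D1:**
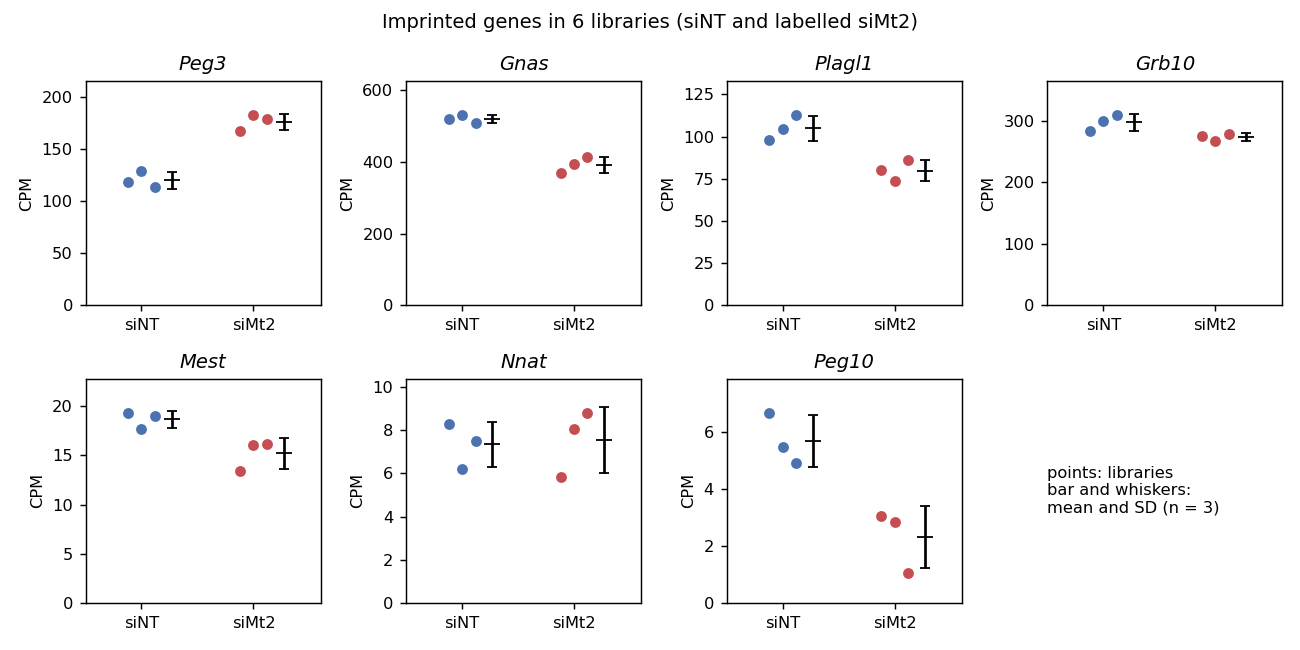
Levels of 7 imprinted genes in CPM (vertical axes, each starting at 0 and on its own scale) in the 3 siNT libraries (blue) and the 3 libraries labelled siMt2 (red); points are libraries, and the bar and whiskers are the mean and SD. Peg3 lies higher in all 3 siMt2 libraries, Gnas, Plagl1, Grb10, Mest and Peg10 lie lower, and the Nnat values overlap.

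Peg3, which encodes a large zinc finger protein that is abundant in embryonic and muscle progenitor cells, was counted 652, 538 and 739 times in the siNT libraries and 1144, 771 and 507 times in those labelled siMt2. Scaled to depth, this was 118, 129 and 113 CPM against 167, 182 and 179 CPM. The lowest siMt2 library thus lay above the highest siNT library. The siNT mean was 120 ± 7.87 CPM and the siMt2 mean 176 ± 7.98 CPM (SD over 3 libraries each), which the fit put at 0.55 on the log2 scale (SE 0.06, with a 95% interval of 0.42 to 0.69; edgeR adjusted p = 3.48e-07). This is 1.47 times the siNT level. Over the 14 alternative settings the log2 fold change stayed between 0.51 and 0.60 and passed in each. The replicates of Peg3 varied by 6.57% and 4.53% of their mean, close to the counting error of 4.44% of its smallest count. In GRCr8 the span of Peg3 overlaps the antisense gene Apeg3, and no source used here says whether the counting used strand, so reads of that gene could be included.

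Gnas encodes the alpha subunit of the stimulatory G protein Gs, which couples hormone receptors to adenylyl cyclase. It was counted 2874, 2221 and 3322 times in siNT and 2527, 1666 and 1173 times in siMt2, or 519, 531 and 509 CPM against 369, 394 and 413 CPM. Every siMt2 library was below every siNT library by more than the spread within a group. On average the level went from 520 ± 10.9 to 392 ± 22.1 CPM (SD over 3 libraries each), and the log2 fold change was -0.41 (SE 0.05, 95% interval -0.51 to -0.31; edgeR adjusted p = 3.59e-07), which leaves 0.752 of the siNT level. The alternatives gave -0.45 to -0.36, all passing. The row joins all Gnas transcripts, and the 3 start windows in the RefSeq table cannot be told apart in these counts.

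Because Peg3 and Gnas were read from the same libraries, their ratio does not depend on how libraries were scaled. For each 100 Gnas counts there were 22.7, 24.2 and 22.2 Peg3 counts in siNT and 45.3, 46.3 and 43.2 in siMt2. The ratio thus went from 23.1 ± 1.04 to 44.9 ± 1.56 (SD, n = 3 each), a difference of 0.96 on the log2 scale. Since each gene had already separated the groups in opposite directions, the ratio had to separate them too and is a description with no test, as are the ratios of Peg3 to Plagl1 and Grb10 and of Mest to Copg2 below. The ratio compares reads, not molecules, since it takes no account of transcript length. Of the reads of the 7 genes, Peg3 took 11.2 ± 0.617% in siNT and 18.6 ± 0.625% in siMt2, whereas Gnas took 48.4 ± 1.02% and 41.4 ± 0.884%.

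Plagl1, a zinc finger transcription factor gene (also called Zac1) that slows the cell cycle and is known to act on other imprinted genes, was counted 541, 436 and 735 times in siNT and 549, 311 and 244 times in siMt2. The levels were 97.7, 104 and 113 CPM against 80.1, 73.5 and 85.9 CPM. Again the groups did not overlap. The means of 105 ± 7.49 and 79.9 ± 6.20 CPM gave a log2 fold change of -0.40 (-0.56 to -0.24 at 95% confidence, SE 0.08; edgeR adjusted p = 2.39e-04), and the alternatives lay between -0.46 and -0.34, all passing. Its start region, printed above, carried 1 hexamer and more CG pairs than that of Peg3. Counted against each other, there were 115 ± 12.4 Peg3 counts for each 100 Plagl1 counts in siNT and 221 ± 23.0 in siMt2.

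Grb10 encodes an adaptor that binds the insulin and IGF1 receptors and dampens their signal. Counts were 1567, 1257 and 2019 in siNT and 1886, 1132 and 792 in siMt2, which is 283, 300.4 and 309 CPM against 275, 268 and 279 CPM. The gap between the groups, from 283 down to 279 CPM, was smaller than the spread within siNT. Means of 298 ± 13.4 and 274 ± 5.73 CPM gave a log2 fold change of -0.12 (-0.22 to -0.02 at 95% confidence, SE 0.05) and an edgeR adjusted p of 0.0474, just under the threshold. The adjusted p lay between 0.0175 and 0.202 over the 14 alternatives, the call was lost in 9 of them, and the direction was the same in all 14. The call was lost without siNT replicate 2 (0.093), siNT replicate 3 (0.202), siMt2 replicate 1 (0.104) or siMt2 replicate 2 (0.147), and with the replicate number as a block (0.0584). The count of Peg3 for each 100 Grb10 counts went from 40.3 ± 3.29 to 64.3 ± 3.73.

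Peg10, a gene derived from a retrotransposon and needed for the placenta, was low, with 37, 23 and 32 counts in siNT and 21, 12 and 3 counts in siMt2. The levels were 6.68, 5.50 and 4.90 CPM against 3.07, 2.84 and 1.06 CPM, and the groups did not overlap. Means of 5.70 ± 0.906 and 2.32 ± 1.10 CPM gave a log2 fold change of -1.17 (-1.89 to -0.45 at 95% confidence, SE 0.35; edgeR adjusted p = 0.00802), the widest interval of the 7 genes. The lowest count, 3 in siMt2 replicate 3, equals the detection limit and has a counting error of 57.7%. Without that library the log2 fold change was -0.93 (edgeR adjusted p = 0.0254), and with all libraries thinned to its depth it was -0.96 and no longer passed (adjusted p = 0.0751).

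Sgce, the paternally expressed gene for epsilon-sarcoglycan that starts from the same region as Peg10, stood at 60.2, 51.1 and 48.7 CPM in siNT and 47.9, 52.5 and 51.1 CPM in siMt2. These values overlapped, and the log2 fold change was -0.09 (SE 0.10, 95% interval -0.30 to 0.13; edgeR adjusted p = 0.506). The difference between the neighbours was read from their ratio. For each 100 Sgce counts there were 11.1, 10.7 and 10.1 Peg10 counts in siNT and 6.40, 5.41 and 2.07 in siMt2, a log2 difference of -1.36. Peg10 alone had separated the groups by a wider factor than the whole range of Sgce, so the ratio had to separate them too. It is a description. Its exact two-sided permutation p of 0.1 (0.14 adjusted over the 7 ratios computed), the smallest that 3 against 3 libraries allow, was set by this and adds no test. Of the other genes fixed for this domain, Pon2 (0.02, SE 0.09) and Casd1 (-0.12, SE 0.13) did not pass, Ppp1r9a was under the level for testing, and Asb4, Tfpi2, Calcr, Pon1 and Pon3 were not analysed here.

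Mest, which encodes a membrane protein of the alpha/beta hydrolase family, was counted 107, 74 and 124 times in siNT and 92, 68 and 46 times in siMt2, or 19.3, 17.7 and 19.0 CPM against 13.4, 16.1 and 16.2 CPM. The siMt2 libraries lay below the siNT libraries, but the gene did not pass. The log2 fold change was -0.32 (SE 0.16, 95% interval -0.64 to 0.0043; edgeR adjusted p = 0.0927), and the adjusted p was 0.0613 to 0.344 over the alternatives. Its neighbour Copg2, a coat protein gene described as maternally expressed in mouse, went the other way. Copg2 rose from 75.9, 81.7 and 76.3 CPM to 125, 101 and 120 CPM (log2 fold change 0.57, SE 0.08; edgeR adjusted p = 6.81e-06). The number of Mest counts for each 100 Copg2 counts was 25.5, 21.6 and 24.9 in siNT and 10.8, 16.0 and 13.5 in siMt2. Cpa4, also fixed for this domain, was under the level for testing, and Klf14 was not analysed here.

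Nnat encodes neuronatin, a small membrane protein of the endoplasmic reticulum known from developing brain and from fat cells. It was counted 46, 26 and 49 times in siNT and 40, 34 and 25 times in siMt2, or 8.31, 6.21 and 7.51 CPM against 5.84, 8.04 and 8.80 CPM. The groups overlapped throughout, with a log2 fold change of -0.01 (SE 0.24; edgeR adjusted p = 0.966). The 95% interval of -0.52 to 0.50 allows anything from 0.695 to 1.41 times the siNT level, so a change of moderate size was not detectable at this depth. Neuronal markers summed to 19.8 to 24.6 CPM in siNT and 46.0 to 49.7 CPM in siMt2. Of these 10 markers, 3 were tested and all 3 rose (Tubb3, Dbh and Map2), as did 25.8% of all genes tested. Snap25 and Elavl4 had 2 counts each over all libraries. Adipocyte markers summed to at most 4.06 CPM in any library. Nnat lies inside Blcap in GRCr8, and without known strand use its reads and those of Blcap may mix. Blcap stood at 95.5 ± 8.32 and 85.7 ± 3.68 CPM and did not pass (log2 fold change -0.14, SE 0.08; edgeR adjusted p = 0.13), although it passed with thinned libraries (-0.24, adjusted p = 0.0345) and without siNT replicate 3 (-0.22, adjusted p = 0.0459).

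**Figure D2:**
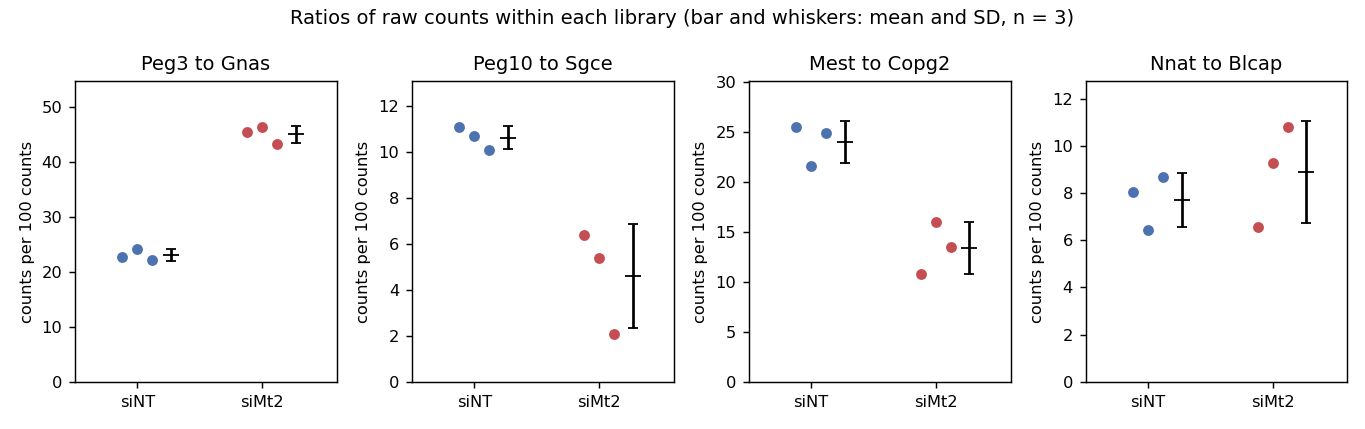
Raw counts of 1 gene for each 100 counts of another in the same library (vertical axes, starting at 0), for the siNT (blue) and siMt2 (red) libraries; points are libraries, bar and whiskers are the mean and SD. The Peg3 to Gnas ratio is 22.2 to 24.2 in siNT and 43.2 to 46.3 in siMt2, Peg10 to Sgce and Mest to Copg2 are lower in siMt2 with no overlap, and Nnat to Blcap overlaps.

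Neighbours of Peg3 and of Ndn were then read, since imprinted genes lie in clusters under shared control regions. Usp29, a ubiquitin protease gene paternally expressed like Peg3 and lying next to it, had 11, 5 and 23 counts in siNT and 37, 24 and 15 in siMt2. In CPM this was 1.99, 1.20 and 3.53 against 5.40, 5.68 and 5.28, with no overlap. Usp29 rose with a log2 fold change of 1.21 (0.46 to 1.95 at 95% confidence, SE 0.36; edgeR adjusted p = 0.00786). It was low, and its smallest count, 5, has a counting error of 44.7%. Both genes of the Peg3 domain with counts rose, as did 25.8% of all genes tested, and 2 genes are too few to describe a domain. Zim1 was not analysed here. In the domain of Ndn, Peg12 rose from 11.6, 8.13 and 9.50 CPM to 15.9, 17.0 and 19.0 CPM (0.80, SE 0.18; edgeR adjusted p = 0.00109). The ubiquitin ligase gene Ube3a, maternally expressed in neurons and from both copies elsewhere, rose from 52.7, 49.5 and 56.4 CPM to 75.0, 76.1 and 83.8 CPM (0.55, SE 0.09; edgeR adjusted p = 2.53e-05). Mkrn3 stood at 7.25 ± 0.509 and 5.11 ± 1.80 CPM and did not pass (-0.42, SE 0.27; edgeR adjusted p = 0.202). Snrpn and Snurf, which share a transcript, had at most 6 counts in any library, and Magel2 was not analysed here. Beside Grb10, Cobl did not pass (-0.15, SE 0.09) and Ddc had at most 3 counts in any library. None of the 7 genes fixed for the domain of Dlk1 and Meg3 was analysed here.

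Other imprinted genes were counted next. Of 22 other paternally expressed genes, 16 had counts and 10 were tested, of which 3 rose, 3 fell and 4 did not pass (median log2 fold change -0.14). The share called, 60.0%, is near the 50.9% of all genes. Besides Peg12 and Usp29, the smallest adjusted p belonged to Slc38a4, an amino acid transporter gene that fell from 21.0 ± 2.97 to 13.9 ± 1.69 CPM (-0.62, SE 0.16; edgeR adjusted p = 0.00376), and to Zrsr1, related to a splicing factor, which fell from 37.3 ± 7.57 to 27.9 ± 4.79 CPM (-0.46, SE 0.15; edgeR adjusted p = 0.0184). The Zrsr1 groups overlapped, and its call was lost with libraries thinned to equal depth (adjusted p = 0.133) and without siNT replicate 2 (0.0561), siNT replicate 3 (0.162), siMt2 replicate 1 (0.111) or siMt2 replicate 2 (0.0847). Only 1 of these genes was called lower without siNT replicate 3, siMt2 replicate 1 or siMt2 replicate 2. Zrsr1 and Mcts2 arose as copies of other genes, so their counts are uncertain.

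Of 22 other maternally expressed genes, 11 had counts and 6 were tested, of which 3 rose, 2 fell and 1 did not pass (median log2 fold change 0.03). The share called, 83.3%, stands beside 50.9% of all genes, 25.8% higher and 25.1% lower. The list is too short to set these shares apart. Copg2 and Ube3a were followed by the oxysterol-binding protein gene Osbpl5, which rose from 125 ± 3.08 to 149 ± 9.28 CPM (0.25, SE 0.06; edgeR adjusted p = 0.00191). Hm13, which encodes signal peptide peptidase and is also called H13, fell from 155 ± 4.54 to 137 ± 7.49 CPM (-0.19, SE 0.06; edgeR adjusted p = 0.0127), a call lost under DESeq2 (0.0536), with thinned libraries (0.0627) and without siMt2 replicate 1 (0.113). Of the other maternally expressed genes, 1 was called lower without siNT replicate 3 and 0 without siMt2 replicate 1. With the listed genes other than Gnas included, 4 of 15 paternally expressed genes tested rose and 5 fell (median -0.19). Of 7 maternally expressed genes tested, 3 rose and 3 fell (median -0.12). The shares called, 60.0% and 85.7%, stand beside 50.9% of all genes, whose median was 4.90e-04. The maternal tally includes Ube3a, although it is maternally expressed in neurons only. The difference between the parental classes was not tested.

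**Figure D3:**
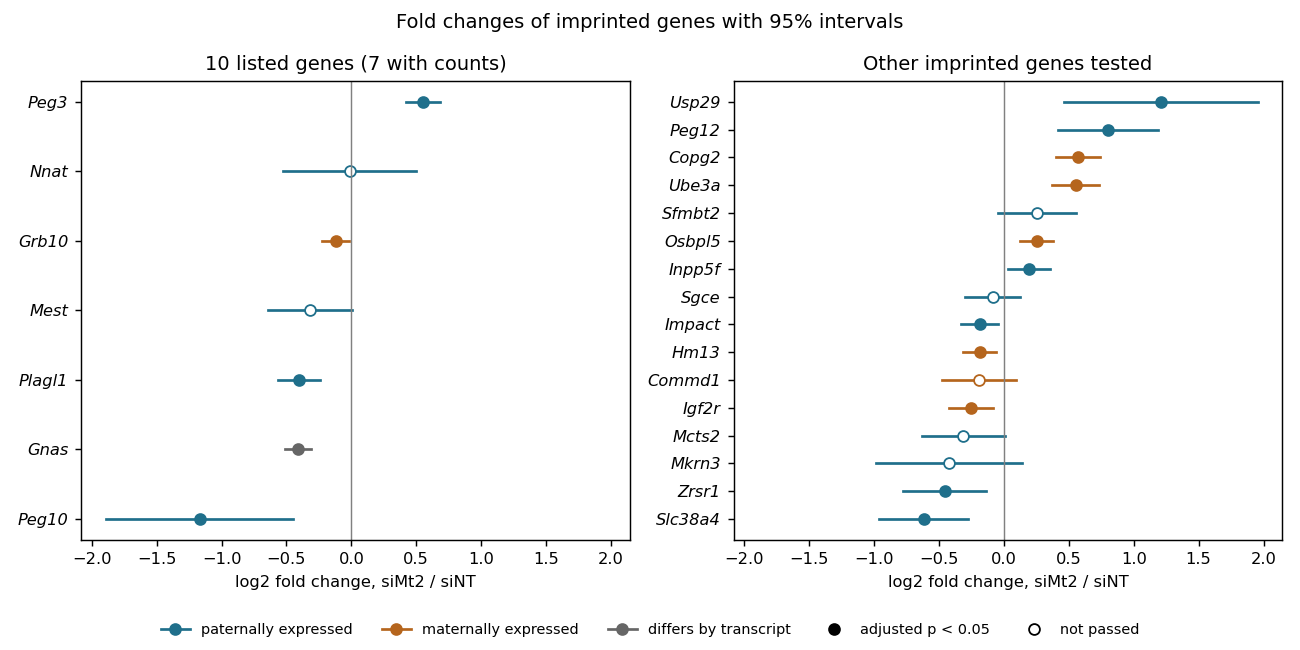
Log2 fold change of siMt2 over siNT (horizontal axis) with its 95% interval for the 7 listed genes with counts (left) and 16 other imprinted genes tested (right), coloured by the parental copy that is known to be expressed; filled points have an edgeR adjusted p under 0.05. Both colours stand on both sides of 0 among the other genes, and Peg3 is the 1 listed gene whose interval lies above 0.

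Of 18 genes fixed for the maintenance of imprints, 14 were tested, 4 rose, 3 fell and 7 did not pass (median log2 fold change -0.08). The 7 of 14 called are a share near the 50.9% of all genes, so the count says nothing particular about these genes. Ctcf, the insulator protein that binds the unmethylated copy of several imprinting control regions, fell from 146, 126 and 146 CPM to 65.4, 66.4 and 70.4 CPM (-1.06, SE 0.07; edgeR adjusted p = 3.18e-10). Trim28, the corepressor recruited by ZFP57, fell from 214 ± 18.7 to 142 ± 8.49 CPM (-0.59, SE 0.07; edgeR adjusted p = 2.76e-07), while Zfp57 itself, named like Dnmt1 below after its value was seen, did not pass (24.3 ± 2.12 and 21.9 ± 0.376 CPM). The de novo DNA methyltransferase gene Dnmt3a rose from 88.0, 87.5 and 92.1 CPM to 142, 140.2 and 138 CPM (0.65, SE 0.06; edgeR adjusted p = 3.29e-08), and Smchd1, a silencing factor of the SMC family, rose from 111 ± 6.03 to 154 ± 9.63 CPM (0.46, SE 0.07; edgeR adjusted p = 7.51e-06). The maintenance methyltransferase gene Dnmt1 did not pass (75.5 ± 4.23 and 70.0 ± 4.99 CPM). No methylation was measured.

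Partners of the proteins that Gnas and Grb10 encode were read from fixed lists. Of 24 Gs and cAMP signalling genes, 18 were tested, 4 rose and 7 fell (median log2 fold change -0.16). The share called, 61.1%, stands beside 50.9% of all genes, 25.8% higher and 25.1% lower, and is no result about Gs signalling. The adenylyl cyclase gene Adcy6 fell from 221, 212 and 231 CPM to 177, 169 and 158 CPM (-0.39, SE 0.06; edgeR adjusted p = 7.94e-06), alongside the phosphodiesterase gene Pde4d (-0.48, SE 0.09), the G protein gamma subunit gene Gng5 (-0.29, SE 0.06) and the protein kinase A subunit gene Prkar2a (-0.27, SE 0.05). Adcy3 and Adcy5, other cyclase genes named after their values were seen, rose (0.61, SE 0.12, and 1.58, SE 0.36). Adcy5 was low, at 1.97 ± 0.870 and 6.29 ± 1.30 CPM. Of 14 receptors and adaptors around Grb10, 13 were tested, 6 rose and 4 fell (median 0.06), a share called of 76.9% beside the same 50.9% of all genes. With DESeq2, 2 of the 13 rose, and 3 rose without siNT replicate 1. The insulin receptor substrate genes Irs2 (-1.05, SE 0.07) and Irs1 (-1.47, SE 0.14) fell, and the adaptor gene Shc1 (0.61, SE 0.06) and the kinase gene Map2k1 (0.33, SE 0.06) rose. The receptor gene Insr stood at 81.1 ± 2.38 and 94.5 ± 6.15 CPM and rose (0.21, SE 0.07; edgeR adjusted p = 0.0252), a call lost under DESeq2 (0.083) and without siNT replicate 1 (0.084), siNT replicate 2 (0.0769) or siMt2 replicate 3 (0.0641), and Igf1r did not pass (167 ± 4.39 and 160 ± 11.3 CPM). Insr and Igf1r were named after their values were seen.

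**Figure D4:**
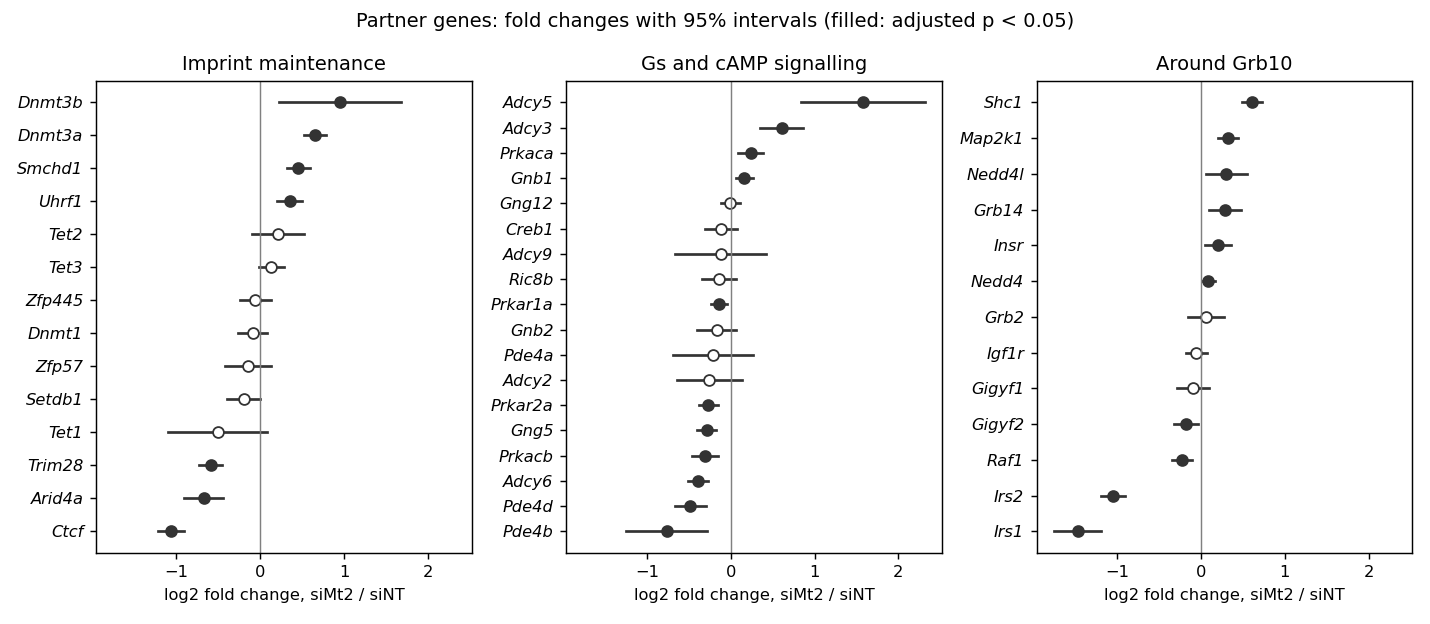
Log2 fold change of siMt2 over siNT (horizontal axis) with its 95% interval for genes that maintain imprints, for Gs and cAMP signalling genes and for receptors and adaptors around Grb10; filled points have an edgeR adjusted p under 0.05. Each list has filled points on both sides of 0, with Ctcf, Irs1 and Irs2 lower and Adcy5 higher by more than 1.

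Genes whose levels over the 6 libraries were most like those of Gnas and Peg3 were sought among 9645 tested genes with a mean of at least 5 CPM, by the root mean square difference of centred log2 CPM. For Gnas these were Tob1 (0.0227), Ahcyl1 (0.0251) and Sort1 (0.0281), which had log2 fold changes of -0.44, -0.42 and -0.43. For Peg3 they were Mxra7 (0.0157), Duxbl1 (0.0313) and Gclc (0.0343), with log2 fold changes of 0.56, 0.60 and 0.49. With 6 libraries in 2 groups, likeness is set mostly by the difference between groups and is a description only.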

How the data were processed

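The authors deposited 1 file of whole-number raw counts per gene for each library, with no normalization. Per the submitters' processing notes, Trimmomatic 0.40, HISAT2 2.2.1, featureCounts, limma, DESeq2 and build rn6 were named, without order or settings. Gene names of 25 rows had become dates and stayed unnamed in the totals (0.250% to 0.278% of counts). No other columns were left out.

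Counts were fitted in R 4.3.3 with edgeR 4.0.16 (filterByExpr with a minimum count of 10, TMM scaling, robust quasi-likelihood test, two-sided, Benjamini-Hochberg over 11726 genes, threshold 0.05). CPM are TMM-scaled and log2 fold changes are siMt2 over siNT. SE is the log2 fold change over the root of F. Limits of counts cover counting error only. Mt2a was compared by exact permutation over 20 assignments, as was the ratio of Peg10 to Sgce, whose outcome the Peg10 values had set in advance. On simulated counts for the siMt2 against siNT comparison (11726 genes, with 63, 60 and 72 changed by 0.5, 1 and 2 on the log2 scale), 63.5%, 85.0% and 100% of these were recovered, with 3.55% of calls false. The simulation changed a small part of the genes, whereas 50.9% passed in the data, so these shares need not hold there. Replicate libraries differed from each other by 1.58 to 2.30 times what counting noise gives, so none was taken for a library deposited more than once. This does not show separate cultures.

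Alternatives were DESeq2 size factors and upper quartile scaling, no filter, a stricter filter (10 counts in each library of a group, mean CPM of 1), the replicate block, DESeq2 1.42.0, limma-voom (limma 3.58.1), thinning to the smallest library and leaving out each library. The genes, lists and tests were chosen with earlier results of these data known. Genes named were all 10 listed, up to 4 of each other list by adjusted p, all genes fixed for a listed gene's domain, and for Gnas and Peg3 the 3 most alike in pattern. H13 was read as Hm13 by its RefSeq synonym.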

Additional observations from a re-analysis of the deposited data

How the results depend on the processing

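Over 23 results and 14 alternatives, 295 of 322 values kept their direction and side of the threshold or a count within 1.5 times, and 0 called values reversed. With libraries thinned to the smallest, 2 listed genes fell in place of 4, 1 of the other paternally and 1 of the other maternally expressed genes fell, and Peg10 was at -0.96 (adjusted p = 0.0751). Under DESeq2, 1 other maternally expressed gene fell and 2 receptors and adaptors around Grb10 rose. Grb10 did not pass under upper quartile scaling (-0.083), the stricter filter (-0.11), the replicate block (-0.12), DESeq2 (-0.12) or thinning (-0.12). Nnat, never called, was at 0.024 under upper quartile scaling, 6.26e-04 with the replicate block and 0.18 when thinned. With each library left out, the ranges were -0.16 to -0.092 for Grb10, -0.12 to 0.18 for Nnat, -0.56 to 0.052 for Mt2a, 3 to 4 listed genes lower, 1 to 3 other paternally and 0 to 2 other maternally expressed genes lower, and 3 to 5 receptors and adaptors higher. The cause of these changes was not tested. Replicate numbers did not pair the libraries (correlations of same-numbered deviations 0.00185, -0.0545 and 0.0326), and the block gave 5897 calls in place of 5971. The lowest count of Peg10 was 3, and the part of depth in the calls lost on thinning was not tested.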
